A study of Sus scrofa with 12 samples.

Results

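The genes of synaptic vesicle release were examined in the hypothalamus of pigs that differed in feed efficiency, that is, in how much growth an animal gains from its feed. The set was defined by gene symbol and not by a cut on any measured value, but it was chosen with earlier results of these data known. It comprised the synaptotagmins, syntaxins, syntaxin binding proteins, VAMPs, SNAP proteins, synapsins, SV2 proteins, RAB3 proteins, RIM proteins, complexins, bassoon (BSN), piccolo (PCLO) and NSF. On the array, 63 such genes were named, of 13755 named genes in all, by 127 probe sets. Each gene was represented by its brightest probe set. Of the 63 genes, 61 were bright enough to be tested, and CPLX4 and STX2 lay below the signal limit, at mean log2 signals of 2.22 and 1.88.

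Total RNA from the hypothalamus of 12 pigs (Sus scrofa) was hybridised to 12 Affymetrix Snowball arrays, a pig array with probes along the whole transcript. Of these pigs, 6 were labelled high and 6 low in feed efficiency, and each group held 3 males and 3 females. All were aged 140 days, and the labels name no further treatment. Each array carried its own pig identifier, so 1 array was taken as 1 pig. The sources used here do not give breed, litter, diet or castration. The tissue is bulk hypothalamus, in which fewer cells of a type and less RNA per cell cannot be told apart.

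A neuron releases transmitter when a vesicle fuses with the plasma membrane. The vesicle SNARE protein VAMP winds together with syntaxin and SNAP-25 of the plasma membrane, Sec1/Munc18 proteins guide this assembly, complexins hold it ready, and synaptotagmins trigger fusion when calcium enters. RIM proteins, bassoon and piccolo organise the active zone where vesicles dock, synapsins tether the reserve of vesicles, and NSF takes the spent SNARE complex apart. Hypothalamic neurons use this machinery at synapses and related SNAREs for the release of peptide hormones, while other members of the same families serve traffic to the plasma membrane, endosomes and Golgi in every cell.

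By these roles, 29 tested genes were classed as neuronal isoforms, 24 as general isoforms and 8 as neither. The general class holds NSF, RAB3B, SYT7 and SYT11 among others, so it is not free of genes that act in neurons. Some other genes of these families were not analysed here.

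The labelled tissue was checked against its markers. Of 10 named hypothalamic markers, OXT, AVP, HCRT, PMCH, TRH and CARTPT had means above the signal of the 69 background probe sets, whose own means ran from 1.30 to 7.49, and AGRP, GHRH, SIM1 and NKX2-1 lay within it. A mean within that range can lie at background. For anterior pituitary markers, 4 tested of 7 listed, the mean deviation from the 12-pig mean was taken. It ran from -1.01 to 0.44 in the high and from -0.78 to 1.08 in the low group. All 4 markers had means within the background range. For 11 neuron markers of 12 listed the mean deviation ran from -0.10 to 0.03 in the high and from -0.05 to 0.12 in the low group. The part of these markers in the values below was not tested. Array medians lay between 4.35 and 4.42. Pig identifiers fell into a lower run, with all males and 1 female of each group, and a higher run with 2 females of each group. The labels do not say what the runs stand for.

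The first comparison asked whether the machinery differed between low and high feed efficiency. No member passed the limma test with Benjamini-Hochberg adjustment over all 35791 probe sets tested (0 of 61, lowest adjusted p 0.796), against 0% of the 12609 genes on the array that were taken by their brightest tested probe set. Differences are given as low minus high on the log2 scale. They ran from -0.21 for VAMP5 to 0.33 for SV2C, and 43 of the 61 (70.5%) were smaller than 0.1 in size, as were 57.3% of all genes. At an unadjusted p under 0.05 there was 1 member of 61, compared with 5.5% of all genes. In no member did the 6 low pigs lie wholly above or below the 6 high pigs, as they did in 0.23% of all genes.

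Neuronal and general isoforms both had medians close to 0. Among the neuronal isoforms 16 were higher and 13 lower in the low group, with a median difference of 0.0092. Among the general isoforms 14 were higher and 10 lower, with a median of 0.0127. Over all 61 members 36 were higher and 25 lower and the median was 0.02, beside a median of -0.0017 and 49.5% higher over all genes. The median of the members was -0.004 without high feed efficiency replicate 2. That of the neuronal isoforms was then -0.02.

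The data bound the size of any difference in array signal for most of the set. The 95% interval lay within a 1.5-fold difference in either direction for 58 of 61 members (95.1%), as it did for 88.7% of all genes. SV2C, SYT4 and VAMP5 were the exceptions. The bound is firmest for the 24 members whose mean exceeded the range of the background probe sets, all of which had intervals within 1.5-fold. These include SNAP25, VAMP1, VAMP2, SYT1, SYT5, SYT11, SYT13, SYN1, SYN2, SV2A, RAB3B, RAB3C, RIMS1, RIMS2, RIMS3, PCLO, NSF and SNAP91. For the other members a signal near background can understate a difference in transcript.

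**Figure D1:**
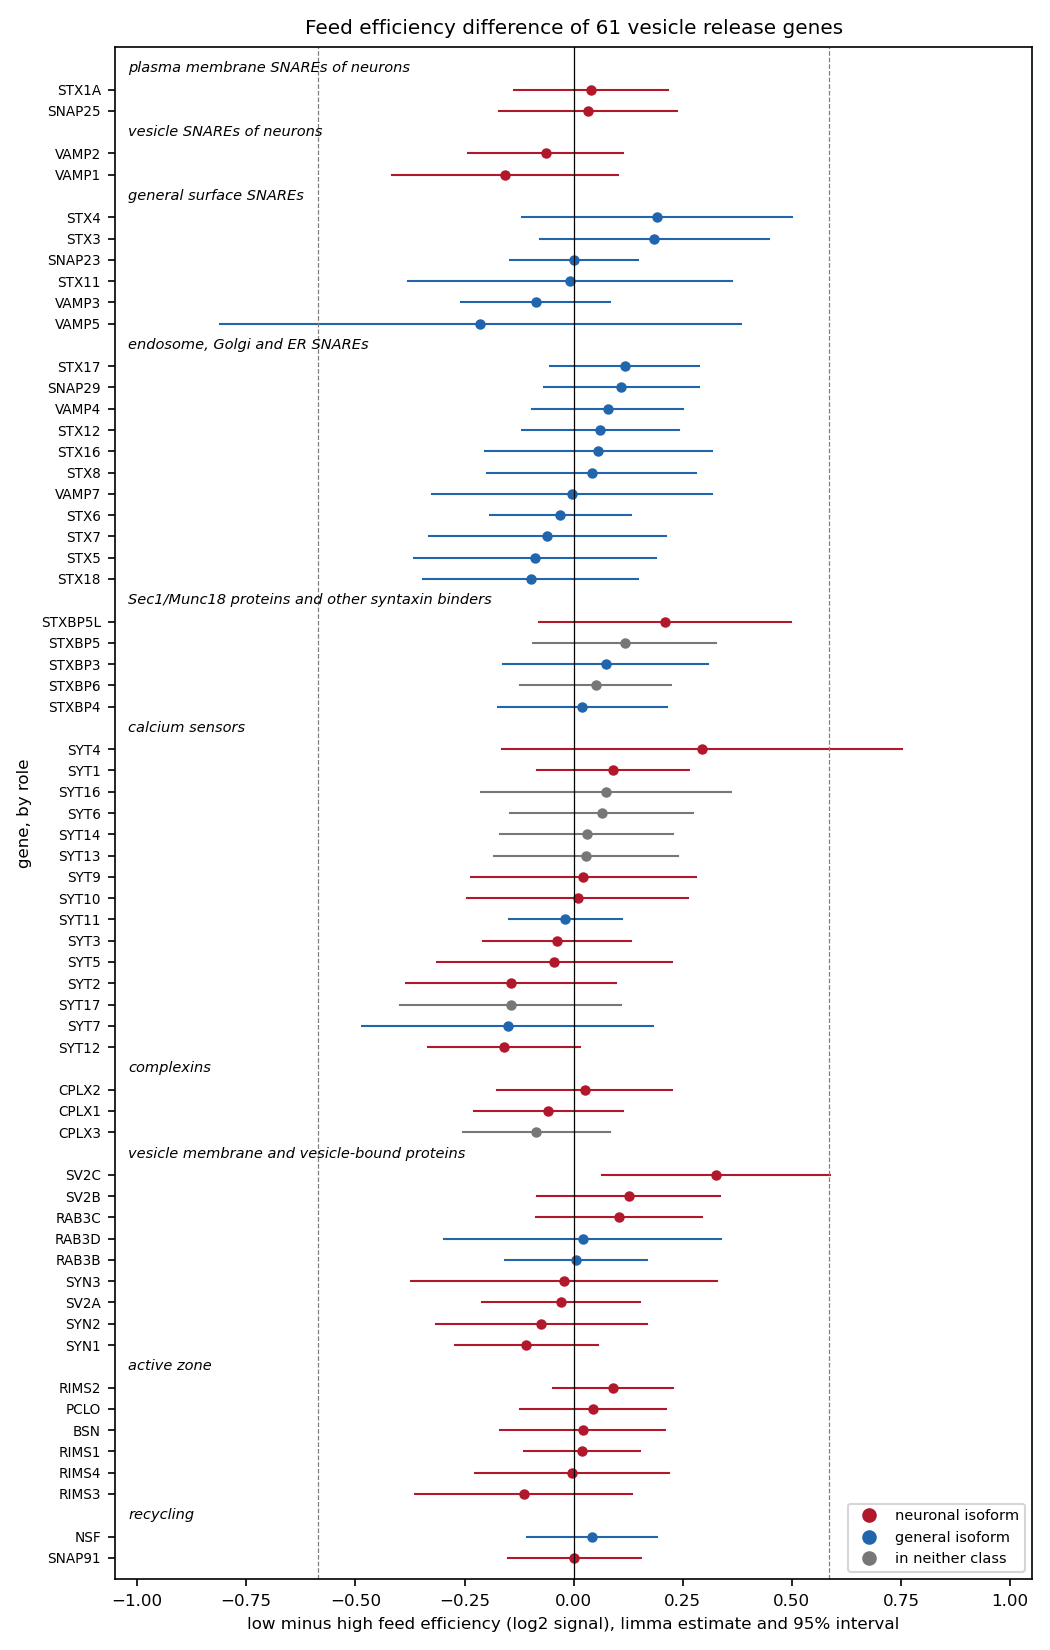
Difference in log2 signal between low and high feed efficiency for each of the 61 tested genes, grouped by role, with its limma estimate (point) and 95% interval (line). Dashed lines mark a 1.5-fold difference in either direction. All intervals but that of SV2C cross 0, and those of SV2C, SYT4 and VAMP5 reach past a dashed line.

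The neuronal SNAREs and the main calcium sensor had overlapping signals in both groups. SNAP25, the plasma membrane SNARE of neurons, ranged from 10.25 to 10.84 (median 10.58) in the high group and from 10.53 to 10.66 (median 10.61) in the low group. The low pigs therefore lay inside the spread of the high pigs. The means were 10.57 ± 0.24 and 10.60 ± 0.05 (SD, n = 6 each), a difference of 0.03 ± 0.09 (SE). STX1A, its syntaxin partner, ranged from 6.36 to 6.63 (median 6.54) in high and from 6.37 to 6.75 (median 6.55) in low pigs, with a difference of 0.04 ± 0.08 (SE). Again the groups overlapped almost completely. The other tested probe set of STX1A gave -0.13, so its direction is not settled by the array. The mean of the brighter STX1A probe set lies within the background range.

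VAMP2, the main vesicle SNARE of forebrain synapses, ranged from 9.58 to 9.90 (median 9.68) in the high and from 9.46 to 9.78 (median 9.65) in the low group, a difference of -0.06 ± 0.08 (SE). Without high feed efficiency replicate 6, the highest pig, it was -0.02. VAMP1, its counterpart that is prominent in brainstem and spinal cord, ranged from 8.79 to 9.08 (median 8.88) and from 8.28 to 9.01 (median 8.82), a difference of -0.16 ± 0.12 (SE). A single low pig was the lowest of all, and without low feed efficiency replicate 6 the difference was -0.06. SYT1, the fast calcium sensor, ranged from 10.37 to 10.61 (median 10.53) in high and from 10.48 to 10.78 (median 10.60) in low pigs, a difference of 0.09 ± 0.08 (SE). It was 0.06 without low feed efficiency replicate 2. Within the lower and the higher run of identifiers the differences were 0.14 and -0.17 for SNAP25 and -0.02 and 0.16 for STX1A. They were 0.02 and -0.22 for VAMP2, -0.05 and -0.38 for VAMP1, and 0.10 and 0.08 for SYT1. The groups overlapped for all 5 of these genes, and their adjusted p in limma lay between 0.841 and 0.960.

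**Figure D2:**
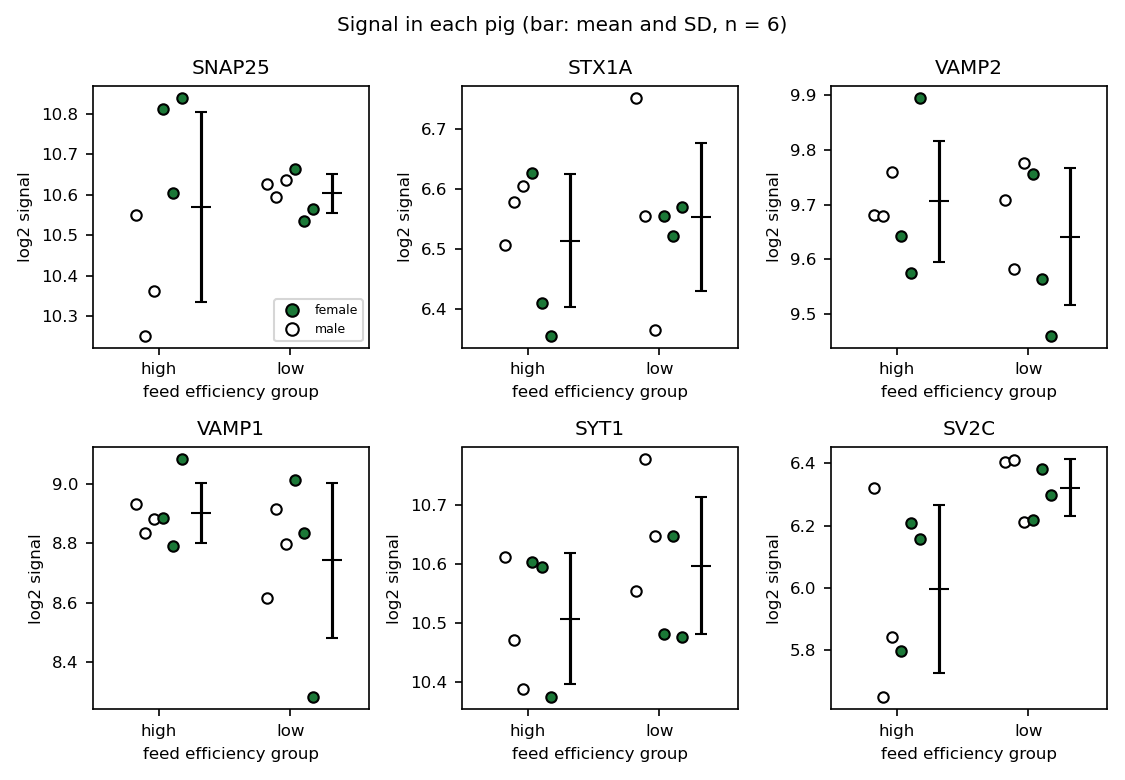
Log2 signal in each pig of the high and low feed efficiency groups for 6 release genes, with open points for males, filled points for females and a bar for mean and SD (n = 6 a group). The groups overlap for SNAP25, STX1A, VAMP2, VAMP1 and SYT1, while for SV2C the 6 low pigs sit between 6.21 and 6.41 and all but 1 high pig lie at or below 6.21.

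SV2C, a vesicle glycoprotein of the SV2 family that botulinum toxin uses as a receptor, had the largest difference of the set. Its values ran from 5.65 to 6.32 (median 6.0) in the high group and from 6.21 to 6.41 (median 6.34) in the low group. Only the upper end of the high group reached the low group. The means were 6.0 ± 0.27 and 6.32 ± 0.09 (SD, n = 6 each), and the difference was 0.33 ± 0.12 (SE), with an unadjusted p of 0.019 and an adjusted p of 0.796 in limma. It did not pass the test. The mean of SV2C over all pigs, 6.16, lies within the background range, and the gene has no other probe set. Left without single pigs, the difference stayed between 0.25 and 0.40. It was 0.41 within the lower and 0.16 within the higher run of identifiers. Its relatives differed less, by 0.13 ± 0.10 (SE) for SV2B and by -0.03 ± 0.08 (SE) for SV2A, the target of the antiepileptic drug levetiracetam.

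The remaining genes with the smallest unadjusted p among those higher in the low group were STXBP5L, STX3 and STX17. STXBP5L encodes a tomosyn, which binds syntaxin and restrains release, and ranged from 3.36 to 3.80 (median 3.70) in high and from 3.68 to 4.41 (median 3.75) in low pigs. Its difference of 0.21 ± 0.13 (SE) was 0.09 without low feed efficiency replicate 3, the pig at 4.41. It was 0.24 within the lower and 0.14 within the higher run. STX3, a syntaxin of apical membranes and ribbon synapses, ranged from 5.25 to 5.79 (median 5.49) and from 5.49 to 5.99 (median 5.68), a difference of 0.18 ± 0.12 (SE). Its difference was 0.12 without low feed efficiency replicate 3, 0.29 within the lower run and -0.03 within the higher run. The other tested probe set of STX3 went the other way, by -0.10, and the mean of both gave 0.04. STX17, which acts in the fusion of autophagosomes with lysosomes, ranged from 6.41 to 6.79 (median 6.55) and from 6.52 to 6.79 (median 6.69), a difference of 0.12 ± 0.08 (SE). Within the lower and the higher run it was 0.11 and 0.13. All 3 overlapped between the groups, and their adjusted p in limma was 0.824 or 0.825. Their means lie within the background range.

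Among genes lower in the low group, SYT12, SYN1, VAMP1 and SYT2 had the smallest unadjusted p. SYT12, a synaptotagmin that does not bind calcium in the usual way, ranged from 6.35 to 6.70 (median 6.5) in high and from 6.18 to 6.46 (median 6.36) in low pigs, a difference of -0.16 ± 0.08 (SE). It was -0.24 within the lower and 0.0017 within the higher run of identifiers. Its dimmer probe set went the other way, by 0.23 ± 0.11 (SE). SYN1, the synapsin that tethers reserve vesicles, ranged from 9.08 to 9.36 (median 9.20) and from 8.99 to 9.22 (median 9.12), a difference of -0.11 ± 0.08 (SE). Within the lower run of identifiers it was -0.01 and within the higher run -0.30. SYT2, a fast calcium sensor best known from hindbrain and neuromuscular synapses, ranged from 6.27 to 6.81 (median 6.54) and from 6.15 to 6.68 (median 6.39), a difference of -0.14 ± 0.11 (SE) that was -0.08 without high feed efficiency replicate 3. Within the lower and the higher run it was -0.15 and -0.14. The adjusted p of SYT12, SYN1 and SYT2 in limma lay between 0.813 and 0.844. The means of SYT12 and SYT2 lie within the background range.

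No gene of the other role groups passed the test. All 5 syntaxin binders were higher in the low group, from 0.02 for STXBP4, which binds STX4, to 0.21 for STXBP5L. Of 15 synaptotagmins 8 were higher and 7 lower. Of the 6 active zone genes 4 were higher and 2 lower, from -0.11 for RIMS3 to 0.09 for RIMS2, and the median standard error of these 6 was 0.08. Among the complexins, the differences were 0.03 for CPLX2, -0.06 for CPLX1 and -0.09 for CPLX3. The recycling genes NSF and SNAP91, a clathrin adaptor, differed by 0.04 and 0.0015. The 11 tested SNAREs of endosome, Golgi and endoplasmic reticulum split into 6 higher and 5 lower, and the 6 tested general surface SNAREs into 3 and 3.

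The gap between a neuronal SNARE and its general counterpart was followed within each pig, as the difference of their log2 signals. Probe sets differ in affinity, so a gap is no ratio of transcripts, but its variation between pigs can be compared. SNAP25 minus SNAP23 averaged 5.35 ± 0.24 in high and 5.38 ± 0.13 in low pigs (SD, n = 6 each), a shift of 0.03 ± 0.11 (SE). For STX1A minus STX4 the shift was -0.15 ± 0.12 (SE), and for VAMP2 minus VAMP3 it was 0.02 ± 0.06 (SE). SNAP23, STX1A and STX4 had means within the background range, so the first 2 gaps can include background signal. The groups overlapped for all 3 gaps.

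Genes with several probe sets gave a check on these differences. Of 34 members with more than 1 tested probe set, 18 had other probe sets that averaged the opposite direction to the brightest for feed efficiency. In the comparison of the sexes 11 of the 34 did so. Such shares over all genes were not taken. Of the 115 tested member probe sets 4 had an unadjusted p under 0.05 for feed efficiency, compared with 6.15% of all probe sets. For sex there were 3, compared with 4.74%, and for the interaction described below 5, compared with 6.07%. The largest of these, singled out after its values were seen, was the dimmer probe set of STX18, a SNARE of the endoplasmic reticulum. It read 4.63, 4.55 and 6.13 in high males and 6.53, 6.53 and 6.96 in low males, and 4.94, 5.04 and 5.22 in high females and 5.77, 5.48 and 5.31 in low females. Within each sex the low pigs lay above the high pigs. Across the sexes the groups overlapped, as the high male at 6.13 lay above the low females. By brightest probe set, 6.87% of all genes had low males above high males, and 3.94% had low females above high females. The share with both was not taken. The low minus high difference of this probe set was 1.01 ± 0.29 (SE), with an unadjusted p of 0.00454 and an adjusted p of 0.764 in limma. It ran from 0.82 to 1.18 without single pigs. It was 1.39 within the lower and 0.26 within the higher run of identifiers. The brighter STX18 probe set gave -0.10 ± 0.11 (SE), so the 2 probe sets of the gene went opposite ways. Both STX18 probe sets had means within the background range. Beside them, a dim probe set of STX8 gave -0.42 ± 0.15 (SE) and 1 of RIMS3 gave -0.17 ± 0.07 (SE), with adjusted p in limma of 0.796 and 0.797. The means of these STX8 and RIMS3 probe sets also lie within the background range.

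The vesicle cycle holds more genes than the families above, among them those of endocytosis, of vesicle transporters and of calcium channels. Of 49 such genes that were named and tested, 25 were higher and 24 lower in the low group, with a median of 0.01, and none passed. An unadjusted p under 0.05 was found for 3 of the 49, compared with 5.5% of all genes. DOC2A, a high-affinity calcium sensor of spontaneous release, read from 5.5 to 5.98 (median 5.88) in high and from 5.99 to 6.38 (median 6.14) in low pigs. Its groups did not overlap, which held for 0.0872% of all genes in this direction. The difference was 0.31 ± 0.09 (SE), with an adjusted p of 0.764 in limma, and the other probe set of DOC2A gave -0.05. Within the lower and the higher run of identifiers the DOC2A difference was 0.31 and 0.30. Its relative DOC2B read from 5.89 to 6.65 (median 6.32) and from 4.93 to 6.38 (median 5.80), a difference of -0.55 ± 0.23 (SE) that was -0.36 without low feed efficiency replicate 4. Within the 2 runs the DOC2B difference was -0.71 and -0.21. Thus the 2 DOC2 genes differed in opposite directions, neither passed the test, and both had means within the background range. SLC18A3, the vesicular acetylcholine transporter, differed by -0.28 ± 0.12 (SE). SYNPR, a vesicle membrane protein, differed by 0.22 ± 0.11 (SE), CADPS2, a priming factor of dense-core vesicles, by 0.17 ± 0.08 (SE) and BIN1, an amphiphysin, by -0.16 ± 0.08 (SE). The means of SLC18A3, SYNPR and CADPS2 lie within the background range, and that of BIN1 lies above it.

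The second comparison was between females and males, with feed efficiency as a term. No member passed (0 of 61, lowest adjusted p 0.904 in limma), against 0% of genes by their brightest probe set and 0.0224% of all probe sets. The differences, female minus male, ran from -0.35 to 0.27, and 28 members were higher and 33 lower in females, while 52.9% of all genes were higher. An unadjusted p under 0.05 was found for 2 members, compared with 3.95% of all genes. In no member did the sexes lie wholly apart, as they did in 0.278% of all genes. Since the higher run of identifiers held females only, sex could be compared within the lower run only, with 2 females against 6 males.

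SYT6, a synaptotagmin best known from the acrosome reaction of sperm, ranged from 6.60 to 6.98 (median 6.79) in males and from 6.27 to 6.69 (median 6.42) in females. The sexes overlapped at 1 female. The means were 6.79 ± 0.16 and 6.44 ± 0.14 (SD, n = 6 each), a difference of -0.35 ± 0.10 (SE), with an unadjusted p of 0.00355. Within the lower run it was -0.26. The mean of SYT6 over all pigs, 6.61, lies within the background range. STXBP3, the Munc18 protein that pairs with STX4 in general exocytosis, ranged from 7.10 to 7.59 (median 7.43) in males and from 7.45 to 7.92 (median 7.65) in females, a difference of 0.27 ± 0.11 (SE) and of 0.19 within the lower run. STXBP3 thus overlapped between the sexes over a narrow range.

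The next smallest unadjusted p belonged to SNAP25 and SYT9 among genes higher in females, and to CPLX1 and SYN2 among genes lower in females. SNAP25 read from 10.25 to 10.64 (median 10.57) in males and from 10.53 to 10.84 (median 10.63) in females, a difference of 0.17 ± 0.09 (SE) and of 0.23 within the lower run. SYT9, a fast calcium sensor, read from 6.24 to 6.94 (median 6.79) and from 6.81 to 7.14 (median 6.93). Its difference of 0.20 ± 0.12 (SE) was 0.10 without high feed efficiency replicate 2 and 0.19 within the lower run. CPLX1, a complexin, differed by -0.15 ± 0.08 (SE), with males from 7.19 to 7.45 (median 7.34) and females from 6.95 to 7.27 (median 7.23). Within the lower run it differed by -0.23. SYN2, a synapsin, differed by -0.19 ± 0.11 (SE), with males from 10.46 to 11.02 (median 10.79) and females from 10.31 to 10.82 (median 10.54), but by -0.005 within the lower run. With the mean of a gene's probe sets the differences were 0.39 for SNAP25, 0.13 for SYT9, -0.06 for CPLX1 and -0.06 for SYN2. None of the 4 passed, and each overlapped between the sexes. The means of SYT9 and CPLX1 lie within the background range.

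The dimmer probe set of SNAP25, picked out after its values were seen, separated the sexes. It read 5.22, 5.18 and 4.64 in high males, 5.04, 4.98 and 5.25 in low males, 5.31, 5.75 and 5.62 in high females and 5.62, 5.85 and 5.82 in low females. Every female lay above every male, as in 0.19% of all genes by their brightest probe set. The difference was 0.61 ± 0.12 (SE), with an unadjusted p of 0.000273 and an adjusted p of 0.505 in limma. It ran from 0.54 to 0.68 without single pigs and was 0.41 within the lower run. The mean of this probe set, 5.36, lies within the background range, whereas the mean of the brighter SNAP25 probe set, 10.59, lies above it.

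**Figure D3:**
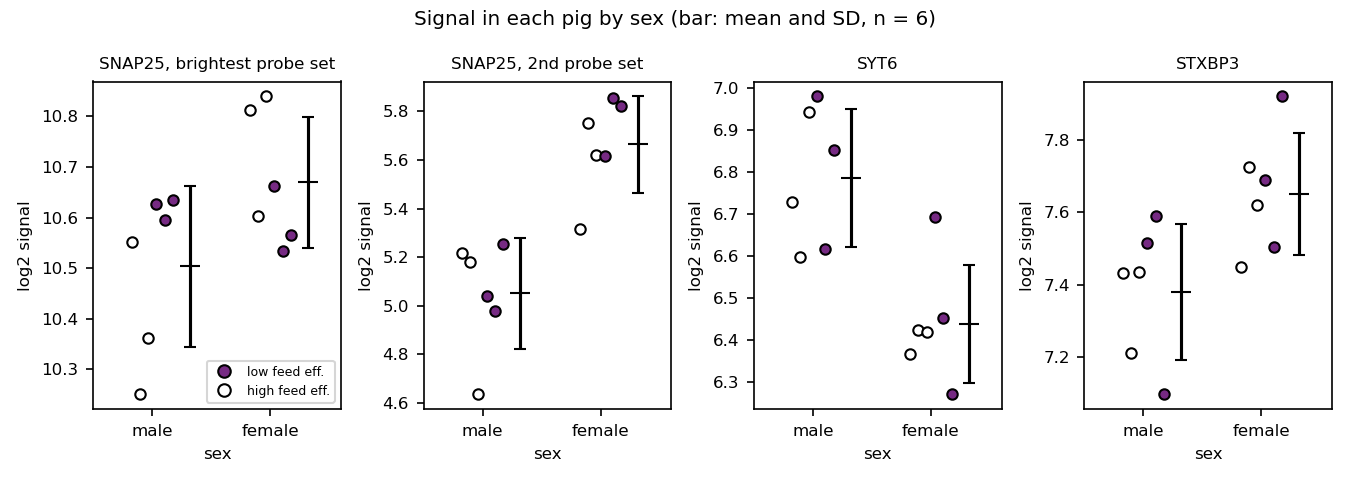
Log2 signal in each male and female pig for both probe sets of SNAP25, for SYT6 and for STXBP3, with open points for high and filled points for low feed efficiency and a bar for mean and SD (n = 6 a sex). The sexes separate at the dimmer SNAP25 probe set, males up to 5.25 and females from 5.31, and overlap in the other panels.

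By role, all 6 active zone genes were higher in females, by 0.0029 for PCLO to 0.09 for RIMS4, and 12 of 15 synaptotagmins were lower in females, with a median of -0.05. Over all genes 52.9% were higher in females and the median was 0.0074. None of these passed the test, and every active zone difference was smaller than its standard error. Of the 49 other vesicle cycle genes 35 were higher and 14 lower in females, beside 52.9% of all genes higher. None of the 49 had an unadjusted p under 0.05, compared with 3.95% of all genes. SH3GL2 and NAPB, which encode endophilin A1 and a SNAP adaptor of NSF, differed by 0.20 ± 0.10 and 0.17 ± 0.08 (SE). UNC13D, a priming factor known from blood cells, and DNM1, the dynamin of neurons, differed by -0.16 ± 0.09 and -0.14 ± 0.09 (SE). The mean of UNC13D lies within the background range.

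The third comparison asked whether the feed efficiency difference was the same in both sexes. The interaction is the low minus high difference in females less that in males. All males were in the lower run of identifiers and most females of each group in the higher run. An interaction with sex therefore cannot be told apart from one with run. No member passed (0 of 61, lowest adjusted p 0.454 in limma), against 0% of all genes, and 3 of 61 had an unadjusted p under 0.05, beside 5.28% of all genes. Its sign was nevertheless uneven. The interaction was negative in 45 of 61 members (73.8%), compared with 50% of all genes, with a median of -0.09 beside -0.0004. The median of the members ran from -0.10 to -0.06 without single pigs. This count over the members was made after the values were seen.

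Among the neuronal isoforms, 24 of 29 had a negative interaction, with a median of -0.12, compared with 15 of 24 general isoforms and a median of -0.06. Within males the median low minus high difference of the neuronal isoforms was 0.04 and within females -0.07. For the general isoforms these medians were 0.05 and 0.02. The difference between the neuronal and general classes was not tested. Equal array medians moved the median of the members to -0.14 and that of all genes to -0.05. Neuron markers that are not release genes had 7 of 11 interactions negative, with a median of -0.14, and the other vesicle cycle genes had 31 of 49 with a median of -0.05. The part of neuron content in these values was not tested.

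**Figure D4:**
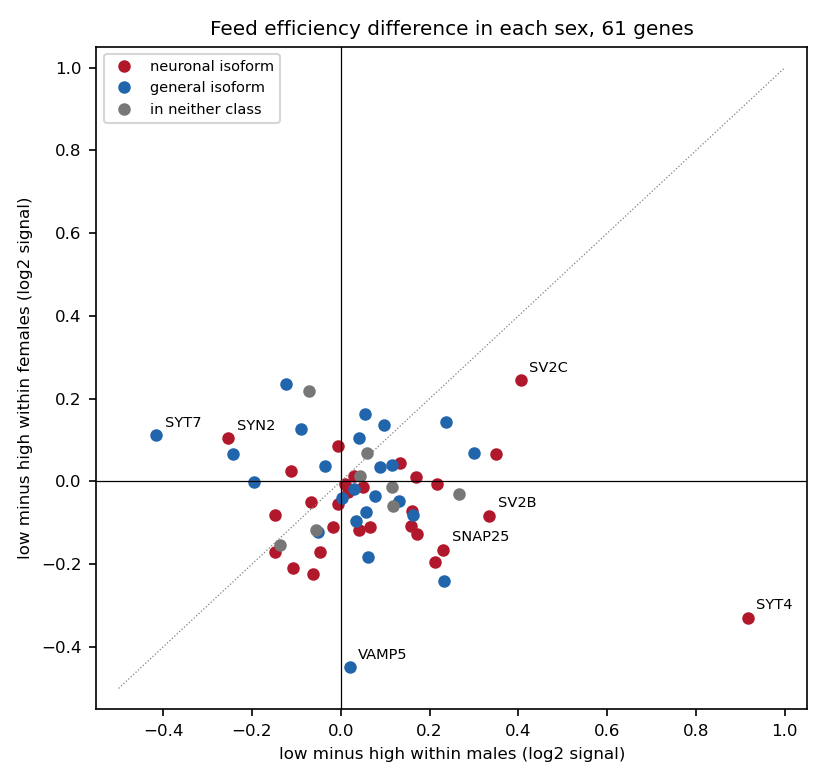
Low minus high difference in log2 signal within males (horizontal axis) against that within females (vertical axis) for 61 genes, coloured by class, with a dotted line where both are equal. Most points lie below the dotted line, 45 of 61, and SYT4 lies farthest from it, at 0.92 in males and -0.33 in females.

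Averaged over the 29 neuronal isoforms, the deviation from the 12-pig mean was -0.02, -0.09 and -0.01 in high males and 0.04, 0.03 and 0.09 in low males. It was 0.05, -0.02 and 0.04 in high females and 0.02, -0.03 and -0.11 in low females. Low males thus lay above high males, while the females overlapped. Taken singly, 6.87% of all genes had low males above high males, and no such share was taken for averages of genes. The 29 genes were read in the same pigs and are not independent. Over the 11 neuron markers the values were -0.07, -0.01 and -0.03 in high males and -0.05, 0.12 and 0.02 in low males, which overlapped. All these deviations are small beside a log2 unit.

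**Figure D5:**
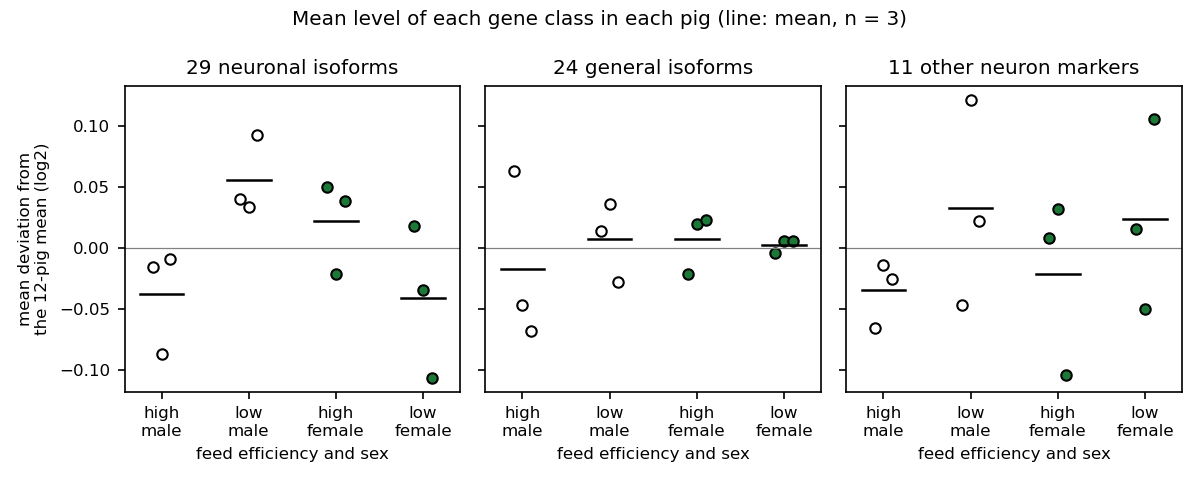
Mean deviation of each pig from the 12-pig mean (log2) over 29 neuronal isoforms, 24 general isoforms and 11 other neuron markers, with 1 point per pig and a line for the mean of 3 pigs. Among the neuronal isoforms the low males, from 0.03 to 0.09, lie above the high males, from -0.09 to -0.01, and the other panels and the females overlap.

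SYT4 was the member furthest from an equal response. It encodes a synaptotagmin of dense-core vesicles that in mice is known to limit oxytocin release from hypothalamic neurons. It read 3.25, 3.2 and 3.18 in high males and 4.11, 4.11 and 4.16 in low males. In females it read 3.81, 3.32 and 3.46 in the high group and 3.13, 3.49 and 2.98 in the low group. Low males therefore lay apart from high males, and the females overlapped. The interaction was -1.25 ± 0.22 (SE), with an unadjusted p of 0.00014 and an adjusted p of 0.454 in limma, and it ran from -1.39 to -1.11 without single pigs. The gene's mean of 3.52 lies within the background range, and no second probe set was tested.

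SV2B and SNAP25 had the next smallest unadjusted p among negative interactions. SV2B, a vesicle glycoprotein, read 7.12, 7.0 and 7.19 in high males and 7.55, 7.38 and 7.38 in low males. Its females read 7.37, 7.51 and 7.48 in the high and 7.39, 7.5 and 7.21 in the low group, so that high males were the lowest set of pigs. The interaction was -0.42 ± 0.15 (SE), with an adjusted p of 0.783 in limma, and the dimmer SV2B probe set gave -0.09. The mean of the brighter SV2B probe set lies within the background range. SNAP25 read 10.55, 10.25 and 10.36 in high and 10.63, 10.60 and 10.64 in low males, and 10.81, 10.60 and 10.84 in high and 10.66, 10.53 and 10.56 in low females. Here too the high males lay below the low males, and the females overlapped. The interaction was -0.40 ± 0.15 (SE), with an adjusted p of 0.783 in limma, and the dimmer probe set of SNAP25 gave 0.12.

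Among positive interactions, SYT7 and SYN2 had the smallest unadjusted p. SYT7, a slow calcium sensor, read 3.39, 3.34 and 2.60 in high and 2.66, 2.81 and 2.61 in low males, and 3.0, 2.77 and 2.69 in high and 2.89, 3.09 and 2.82 in low females. Here 2 high males stood above all other pigs, and the interaction was 0.53 ± 0.27 (SE). SYN2 read 10.76, 11.02 and 10.84 in high and 10.46, 10.58 and 10.82 in low males, and 10.67, 10.31 and 10.55 in high and 10.82, 10.53 and 10.50 in low females. Its interaction was 0.36 ± 0.20 (SE). With the mean of its probe sets it was 0.09. The adjusted p in limma was 0.844 for SYT7 and 0.852 for SYN2. The mean of SYT7 over all pigs, 2.89, lies within the background range and near the signal limit of 2.43.

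Groups that lay wholly apart were also counted within each sex. In males the 3 low pigs lay above the 3 high pigs for 5 of 61 members (8.2%), namely SNAP25, SV2B, SYT4, PCLO and NSF, compared with 6.87% of all genes, and below them for 1 of 61 (1.64%), SYT12, compared with 7.78% of all genes. In females they lay above for RIMS2, SNAP29 and SV2C and below for SYT2, SYT3 and SYT9, 4.92% each, compared with 3.94% and 4.77% of all genes. No member was separated in opposite directions in the 2 sexes, as 0.642% of all genes were.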

How the data were processed

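Log2 values deposited by the authors, 1 per probe set and array, were used as given. Their log2 scale was read from their range. Per the submitters' processing notes, GCOS 1.1.1 was used, and the sources used here do not give background correction, summary or normalization. Control rows (123 of 47845) were left out, as were the 25 percent of the other probe sets with the lowest mean over all arrays (limit 2.43), leaving 35791. Gene names came from the platform annotation, and 1 microRNA precursor probe set with a member's symbol was left out.

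Each contrast was fitted with limma 3.58.1 in R 4.3.3 (lmFit, eBayes), feed efficiency with sex as a term and the interaction from the 4 groups, with p-values adjusted by the Benjamini-Hochberg method over the probe sets tested and a threshold of 0.05. Intervals are 95 percent. The fits were tested on simulated data. The number of arrays limits the precision.

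The members, lists and roles were chosen with earlier results of these data known. Values by pig, or the lowest, median and highest, are given for 5 core genes, for the 4 members per direction with the smallest unadjusted p for feed efficiency, the 3 for sex and the 2 for the interaction. Of other vesicle cycle genes, 3 per direction were named for feed efficiency and 2 for sex. Alternatives were other filters, normalizations, variance settings, array weights, the mean of a gene's probe sets, other covariates, a threshold of 0.1 and leaving out each pig. Plots were drawn with matplotlib 3.10.9.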

Additional observations from a re-analysis of the deposited data

Results flagged for a closer look

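In each feed efficiency group of 6 pigs, a single pig far from the other 5 was sought for each of the 61 tested genes, by whether its gap to the nearest other pig, as a share of the group's range, exceeded Dixon's 95% critical value. This held in 7 of 122 groups, and chance gives about 1 in 20. NSF read 10.28 in high feed efficiency replicate 2, with the next pig at 10.47. RAB3C, a vesicle GTPase, read 9.57 in low feed efficiency replicate 2, with the next at 9.30. RAB3D, its relative in secretory cells, read 4.69 in high feed efficiency replicate 4, with the next at 5.28. RIMS4 of the active zone read 5.77 in high feed efficiency replicate 3, with the next at 6.17. SNAP29, a SNARE of endosomes and autophagosomes, read 6.44 in high feed efficiency replicate 1, with the next at 6.19. STXBP5L read 4.41 in low feed efficiency replicate 3, with the next at 3.84. SYT11, a synaptotagmin that does not bind calcium, read 10.81 in low feed efficiency replicate 6, with the next at 10.95.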

How the results depend on the processing

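The count of members past the threshold was 0 under each of 23 alternatives for feed efficiency, 22 for sex and 21 for the interaction, with the lowest adjusted p in limma from 0.593 to 0.966, 0.481 to 1.00 and 0.242 to 0.828. At an unadjusted p under 0.05 these alternatives gave 1 to 3, 1 to 5 and 2 to 4 members. Without single pigs the feed efficiency difference of SNAP25 ran from -0.019, without high feed efficiency replicate 2, to 0.075, without high feed efficiency replicate 6. With the mean of a gene's probe sets, that of SNAP25 was 0.087, that of STX1A was -0.044, that of SYT12 was 0.035 and that of STX3 was 0.044. Of all probe sets, 1 passed for feed efficiency without low feed efficiency replicate 2 (adjusted p 0.0328), and 0 with all pigs, so that leaving out single pigs gave 0 to 1. For sex 8 probe sets passed, 2 with the dimmest 50 percent left out and 5 with the run of identifiers as a term, and 7 to 10 without single pigs. The cause was not tested. Replicate numbers follow the order of the samples and pair no pigs. The deviations of same-numbered pigs correlated at -0.003 to 0.088, and with the number as a replicate block 0 members and 0 probe sets passed for feed efficiency (lowest adjusted p of a member 0.789). Signal over background limits what a small difference can show: 24 of the 61 members had means above the background range.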
